A study of Mus musculus with 18 samples.

Results

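The 37 genes described here encode complement and clotting proteins that hepatocytes secrete into the blood, with their serpin and other inhibitors. They were taken by gene symbol from a table of 54838 genes in 18 mouse liver and liver tumour samples, and all 37 were found. The list was chosen with earlier results of these data known. The samples came in 6 groups of 3: tumours, non-tumour livers and normal livers of WT and GKO mice on the C57BL/6 background, with a labelled age of 36 weeks. GKO mice lacked the miR-181ab1 cluster, made up of Mir181a-1 and Mir181b-1, in every tissue, and WT mice kept it. Tumours and non-tumours were from mice given a single intraperitoneal dose of diethylnitrosamine (DEN, a liver carcinogen) of 25 mg/kg at postnatal day 12, and normal livers were from untreated mice. The labels did not say which tumour and which non-tumour sample shared a mouse, nor that the replicates of a group were separate mice, so that the p-values below measure only the spread between these samples.

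Complement is a cascade of plasma proteases and binding proteins that tags and lyses microbes. It is started by C1 on antibodies, by mannose-binding lectins on sugars, or by slow turnover of C3, and it ends in the membrane attack complex made from C5b to C9. Clotting runs through a contact arm and a tissue factor arm to thrombin, which cuts fibrinogen to fibrin, and plasmin later dissolves the fibrin. The hepatocyte is the main source of most of these proteins, and several of them, fibrinogen among them, are raised by interleukin-6 in the acute phase response.

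Expression was given as TPM, in which read numbers are corrected for transcript length and every library is brought to a common total, so levels can be compared between genes. A TPM value is a share of the library, and a gene that takes more of it leaves less for the rest. Between 11925055 and 20751346 reads on genes were recovered per sample. All 10 hepatocyte markers were present in every sample, the lowest being Cps1 at 110.5 TPM, and together they took 19.7% to 23.4% of TPM in the tumours against 7.05% to 10.1% in the 12 other livers. The most abundant of them, Alb (albumin), ranged from 83550 to 139800 TPM in tumours and from 22860 to 44070 TPM elsewhere. By log2 fold change against the non-tumours, 6 of the 10 markers were higher and 4 lower in WT tumours. In GKO tumours 7 were higher and 3 lower, so the sum does not stand for every marker. In bulk tissue, fewer cells of a type and less RNA per cell cannot be told apart. WT tumours 1 and 2 were much alike, with a Pearson r across genes of 0.982, whereas WT tumour 3 stood apart from both at 0.919 and 0.921. Mir181a-1 had 1 read in a single GKO tumour and 0 reads in every other sample, and Mir181b-1 had 0 reads throughout. Precursors this short are mostly lost from RNA-seq libraries, so the deletion could not be checked here.

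Levels of the 37 genes spanned about 3 orders of magnitude. Over all 18 samples the mean was highest for Fgg, Kng1 and C3 at 2375, 2253 and 2031 TPM, and lowest for Cfd and Cfb at 4.09 and 2.25 TPM. The 5 most abundant genes held 49.1% of the summed TPM. The sum of all 37 genes was 21260, 20510 and 35040 TPM in the WT tumours and reached 31880, 28720 and 28190 TPM in those of GKO mice. It lay between 16180 and 27020 TPM in WT non-tumours, 11940 and 18280 TPM in GKO non-tumours, and 13400 and 16220 TPM in the 6 normal livers. Every GKO tumour was above all 12 livers without a tumour, while WT tumours 1 and 2 were below WT non-tumour 3.

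**Figure D1:**
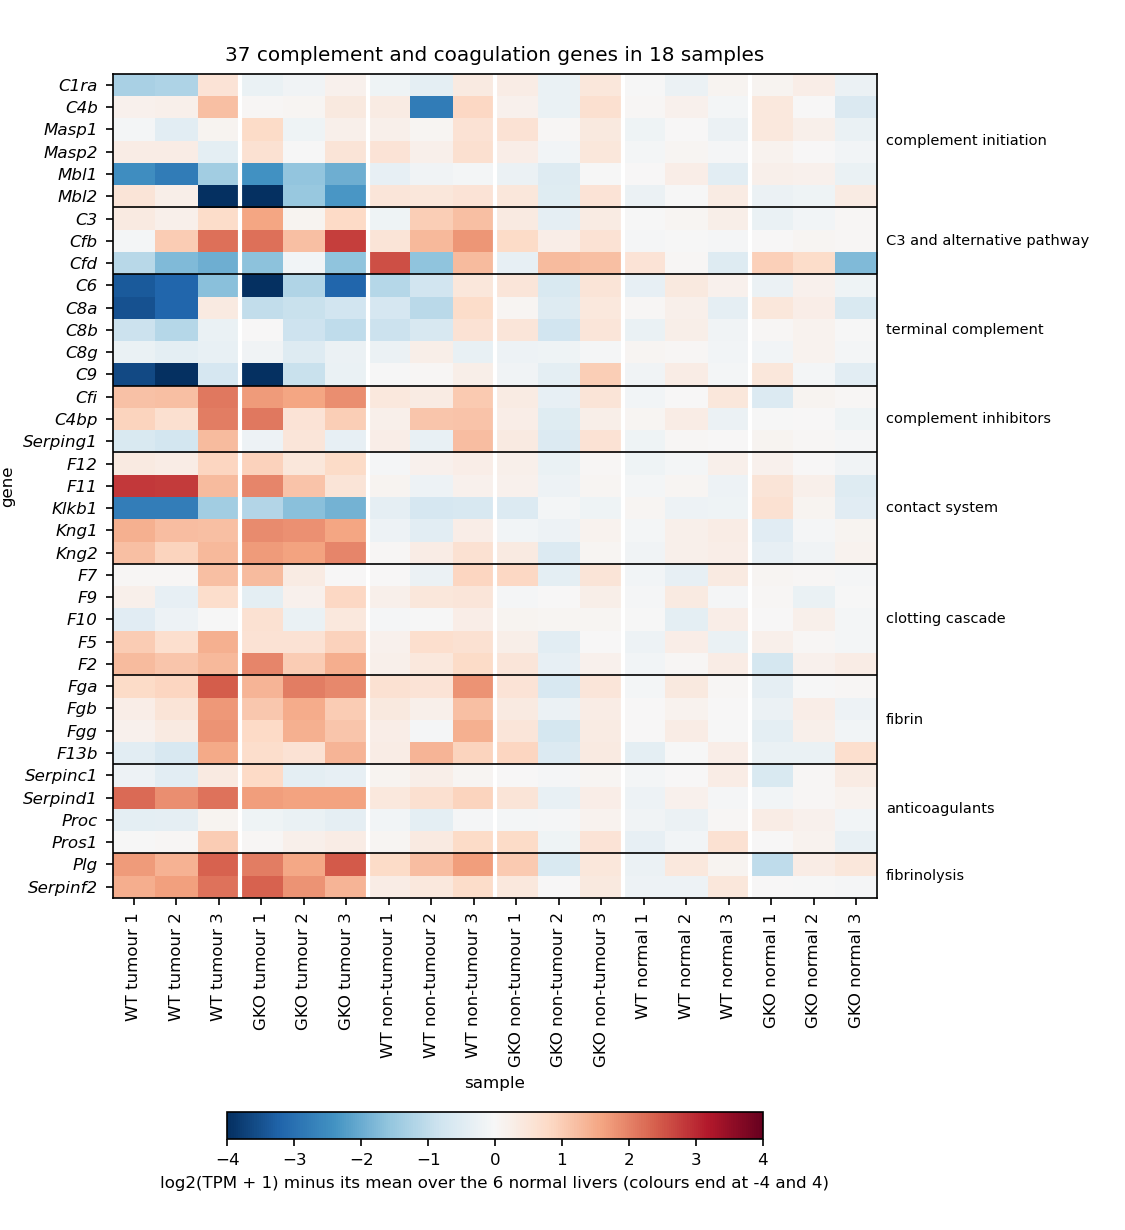
Heat map of the 37 genes (rows, grouped by role) in the 18 samples (columns). Colour gives log2(TPM + 1) minus the mean of the 6 normal livers for that gene; red is higher and blue lower, and colours end at -4 and 4. In the tumour columns the kininogens, Serpind1, Plg, Serpinf2 and Cfi are red, while Mbl1, Klkb1 and C6 are blue.

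The tumours were first compared with the non-tumour livers of the same genotype, to ask how the secreted cascades differ in a tumour. In WT mice 3 of the 37 genes were higher and 1 was lower in tumours by limma at a Benjamini-Hochberg adjusted p under 0.05, against 2.16% and 2.07% of all 14003 genes tested. In GKO mice 10 were higher and 2 lower, against 7.75% and 3.97% of 14092 genes. Kng1 and Serpind1 rose and Mbl1 fell in both genotypes. The median log2 fold change of the 37 genes was -0.15 in WT and 0.16 in GKO mice, close to those of all genes tested at -0.02 and 0.20. In WT mice 16 genes were above 0 and 21 below, and in GKO mice 22 were above and 15 below.

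Groups that did not overlap give a second view that does not depend on the model. In WT mice 9 genes had all tumours above all non-tumours and 4 had all tumours below, where 11.0% and 13.9% of all genes did so. In GKO mice the counts were 15 and 6, where the shares over all genes were 25.7% and 12.7%. When each sample was scaled to the same median, which moved the median of all genes in the GKO comparison from 0.20 to -0.04, the GKO split of 10 higher and 2 lower became 7 and 4. Quantile normalization turned the WT split of 3 and 1 into 4 and 0, with Mbl1 at an adjusted p of 0.0532. The WT calls depended on single samples: leaving out WT tumour 1, WT tumour 2, WT non-tumour 1 or WT non-tumour 3 left 0 calls and leaving out WT non-tumour 2 left 2, whereas without WT tumour 3 all 4 were kept and 8 genes passed. The fit without WT tumour 3 kept only WT tumours 1 and 2, which were much alike, so its p-values may be too small. In the GKO comparison 4 genes passed without GKO tumour 3, 5 without GKO non-tumour 2 and 1, Kng1, without GKO non-tumour 3.

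**Figure D2:**
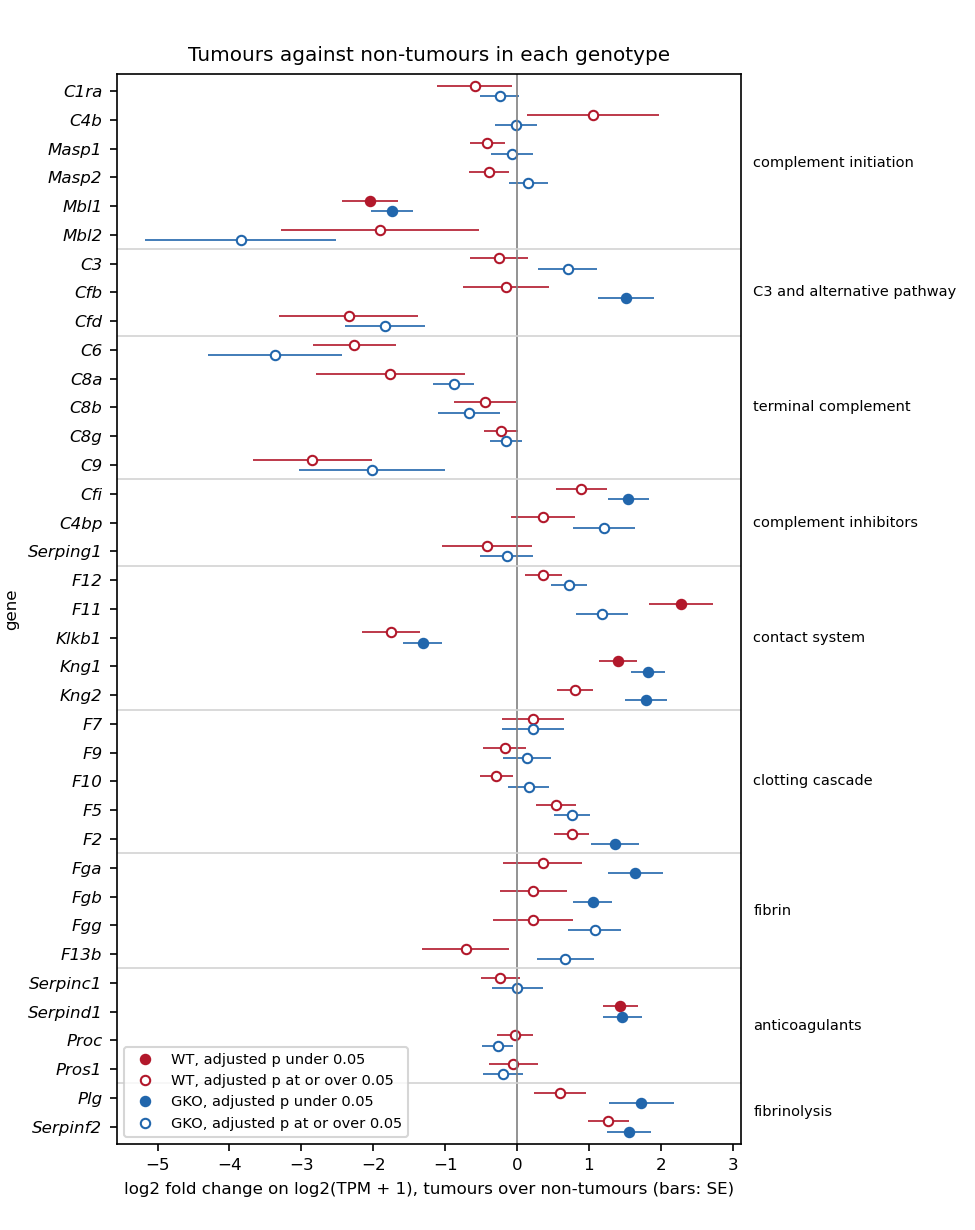
Log2 fold change of each gene between tumours and non-tumours (x axis, with SE bars) in WT (red) and GKO (blue) mice, genes grouped by role. Filled points had an adjusted p under 0.05: 4 in WT and 12 in GKO mice. The 5 terminal complement genes lie below 0 in both genotypes, and the contact genes lie above 0 except Klkb1.

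Among the 6 genes that start the complement cascade, 5 were below 0 in each genotype, but only Mbl1 passed the test. Mbl1 (chr14:41151458-41159601) encodes mannose-binding lectin A, which binds microbial sugars and brings in the MASP proteases. Its level was 60.9, 49.3 and 132.5 TPM in the WT tumours and 274.7, 316.4 and 331.1 TPM in the WT non-tumours. In the GKO samples it was 63.9, 116.6 and 88.2 TPM in tumours against 297.3, 244.5 and 344.9 TPM in non-tumours. All 6 tumours were below all 12 other livers, the lowest of which had 244.5 TPM. Mbl1 fell by 2.04 on the log2 scale in WT mice (SE 0.39, adjusted p = 0.0363) and by 1.74 in GKO mice (SE 0.29, adjusted p = 0.0143).

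Mbl2 (chr19:30232942-30239687), which encodes the related lectin C, followed another pattern. WT tumours 1 and 2 had 751.0 and 619.3 TPM, as much as the WT non-tumours at 738.0, 713.1 and 775.5 TPM, but WT tumour 3 had only 15.6 TPM. The GKO tumours had 2.65, 182.9 and 103.2 TPM against 719.5, 372.1 and 766.6 TPM in the GKO non-tumours. So 4 of the 6 tumours were low, by amounts that differed widely, and the other two were not. The log2 fold change was -1.91 (SE 1.38) in WT and -3.84 (SE 1.33, adjusted p = 0.101) in GKO mice, and neither passed the test. Without GKO tumour 1, at 27 reads the lowest, the GKO change was -2.09 with an adjusted p of 0.0380.

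The 150 bases upstream of the RefSeq starts of both lectin genes are shown for this contrast. They share a run of 13 bases, in capitals, from position -23 to -11 in Mbl1 and from -57 to -45 in Mbl2 (GRCm38.p6, plus strand, chr14:41151306-41151455 and chr19:30232778-30232927):
Mbl1: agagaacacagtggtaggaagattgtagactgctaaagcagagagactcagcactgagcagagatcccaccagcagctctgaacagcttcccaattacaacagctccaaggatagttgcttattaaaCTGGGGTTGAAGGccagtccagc
Mbl2: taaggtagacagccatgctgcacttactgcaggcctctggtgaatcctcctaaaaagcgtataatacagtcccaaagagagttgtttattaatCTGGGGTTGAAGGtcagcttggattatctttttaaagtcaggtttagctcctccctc

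The other starters changed less. C1ra, a protease of C1, was at 61.2 and 64.0 TPM in WT tumours 1 and 2 but 221.5 TPM in WT tumour 3, against 116.6 to 193.1 TPM in WT non-tumours. C4b, cleaved by C1 and by the lectin pathway, had 47.2 TPM in WT non-tumour 2 and between 222.3 and 757.9 TPM in the 17 other samples. Its log2 fold change was 1.06 (SE 0.92) in WT mice, which include that low sample, and -0.02 in GKO mice. Masp1 and Masp2, the proteases bound to the lectins, had log2 fold changes between -0.41 and 0.16. Tardbp overlaps 54.9% of the exonic bases of Masp2 on the other strand. Reads on the shared bases may have been dropped or counted for either gene, so the level of Masp2 is uncertain. Of the 50-base windows of C1ra, 50.8% recur in C1rb and other genes, and 34.6% of those of C4b recur in C4a, which had at most 25.4 TPM, so reads of these pairs may have been divided.

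C3 is the component on which all starting routes converge, and Cfb and Cfd are the protease and the activator of its alternative pathway. C3 had 1910, 1711 and 2482 TPM in WT tumours, 4479, 1614 and 2579 TPM in GKO tumours, 1328, 2981 and 3425 TPM in WT non-tumours and 1937, 1178 and 1888 TPM in GKO non-tumours. These ranges overlapped, and C3 did not pass the test in either genotype. Cfb was scarce, with 0.428, 2.03 and 5.90 TPM in WT tumours and 1.16, 2.69 and 4.15 TPM in WT non-tumours. GKO tumours had 5.94, 2.42 and 9.23 TPM and GKO non-tumours 1.58, 0.813 and 1.23 TPM, without overlap. On this scale Cfb rose by 1.51 in GKO mice (SE 0.39, adjusted p = 0.0486), a call that was lost when any one of the 6 samples except GKO tumour 2 was left out. The annotation also holds a readthrough gene, Gm20547, that covers 79.5% of the exonic bases of Cfb on the same strand and was listed at 0 in all samples, so that reads common to both may be missing from Cfb and its level here is uncertain.

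Cfd, which encodes adipsin, had 0.787, 0.132 and 0 TPM in WT tumours, with 0.235, 2.52 and 0.264 TPM in GKO tumours. Levels in the non-tumours were 21.8, 0.266 and 8.16 TPM in WT and 2.08, 8.31 and 7.80 TPM in GKO mice. The groups overlapped in both genotypes. Adipocytes are a known source of Cfd. The 7 adipocyte markers summed to 0.687 to 13.6 TPM in WT tumours, 1.71 to 21.9 TPM in GKO tumours, 1.20 to 11.5 TPM in WT non-tumours and 1.26 to 3.81 TPM in GKO non-tumours. Only Cidea among the 7 passed the filter on low values, Adipoq had at most 0.43 TPM and Lep was at 0 in every sample. The part of adipocytes in the levels of Cfd was not tested.

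The 5 genes of the membrane attack complex among the 37, C6, C8a, C8b, C8g and C9, were below 0 in both genotypes, with median log2 fold changes of -1.76 in WT and -0.88 in GKO mice, where the medians of all genes were -0.02 and 0.20. None passed the test by limma, with 2 at an unadjusted p under 0.05 in each genotype (C6 and C9 in WT, C6 and C8a in GKO mice), where 19.9% of all genes in WT and 31.7% in GKO mice had such a p. Median scaling and quantile normalization kept all 5 below 0, and in the GKO comparison both added C6 and C8a to the genes passing it.

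C6 joins the complex after C5b. It had 4.56, 5.34 and 16.9 TPM in WT tumours and 24.9, 33.0 and 78.3 TPM in WT non-tumours. GKO tumours had 0.426, 24.0 and 5.31 TPM against 79.1, 36.5 and 80.6 TPM in GKO non-tumours. Every tumour was thus below every liver without one, the lowest of those being WT non-tumour 1. Log2 fold changes were -2.26 (SE 0.58, adjusted p = 0.0892) in WT and -3.36 (SE 0.93, adjusted p = 0.0578) in GKO mice.

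C9, whose copies line the pore, was at 15.6, 11.7 and 126.4 TPM in WT tumours against 197.5, 208.8 and 238.4 TPM in WT non-tumours. In GKO tumours it had 8.38, 107.2 and 165.8 TPM and in GKO non-tumours 180.2, 154.2 and 395.6 TPM. WT tumours 1 and 2 and GKO tumour 1 were thus far below the normal livers, which ranged from 148.1 to 272.5 TPM, and the other tumours were near or slightly below them. The log2 fold changes were -2.85 (SE 0.82, adjusted p = 0.121) and -2.01 (SE 1.01).

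C8a behaved like C9 in the WT tumours, at 22.8, 28.4 and 335.6 TPM, against 165.1, 125.4 and 435.2 TPM in WT non-tumours. GKO tumours were even at 132.0, 140.6 and 154.1 TPM, below GKO non-tumours at 276.4, 185.9 and 350.4 TPM. Its partner C8b, 11130 bases away on chromosome 4, had log2 fold changes of -0.45 and -0.67, and C8g, the smallest chain of C8, stayed between 544.7 and 926.6 TPM in all 18 samples. C8g was thus 28.4 and 21.3 times C8a in WT tumours 1 and 2, and 1.49 to 7.39 times C8a in the 16 other samples. Without WT tumour 3, C6, C8a and C9 passed the test in WT mice with log2 fold changes of -2.79, -2.98 and -3.89 and adjusted p-values of 0.0248, 0.0278 and 0.00107. In that fit 1363 of 14075 genes passed, against 592 of 14003 with all samples. It kept only WT tumours 1 and 2, which were much alike, so its p-values may be too small. With WT tumours 1 and 2 averaged as 1 sample beside WT tumour 3, 0 of the genes described here passed in WT mice.

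Of 3 inhibitors of complement, Cfi and C4bp were above 0 and Serping1 was slightly below in both genotypes. Cfi encodes factor I, which cuts C3b and C4b. It had 813.7, 821.5 and 1544 TPM in WT tumours and 481.6, 446.9 and 745.0 TPM in WT non-tumours, a log2 fold change of 0.89 (SE 0.36, adjusted p = 0.232). GKO tumours had 1185, 1079 and 1313 TPM against 449.1, 287.0 and 517.7 TPM, and Cfi rose by 1.55 (SE 0.28, adjusted p = 0.0190). All 6 tumours were above all 12 other livers. C4bp, the cofactor of factor I for C4b, had 332.5, 112.0 and 154.1 TPM in GKO tumours and 92.3, 54.9 and 89.7 TPM in GKO non-tumours (1.21, SE 0.43, adjusted p = 0.106). Serping1, the C1 inhibitor, was at 305.7 and 281.3 TPM in WT tumours 1 and 2 and at 1116 TPM in WT tumour 3, with log2 fold changes of -0.42 and -0.15.

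The contact system, in which kininogens carry plasma prekallikrein and factor XI to surfaces where factor XII is activated, differed between tumours and non-tumours without overlap in all its genes. The genes F12, F11, Kng1 and Kng2 had all tumours above all non-tumours in both genotypes, and Klkb1 had all tumours below. In WT mice F12 was separated only narrowly, with 826.2 TPM in the lowest tumour and 822.0 TPM in the highest non-tumour. Of all genes, 11.0% had all tumours above and 13.9% all tumours below in WT mice, and 25.7% and 12.7% in GKO mice. The summed TPM of the 5 contact genes was 5037, 4527 and 4885 in WT tumours, 7026, 6390 and 5862 in GKO tumours, and between 2009 and 2803 in the 12 other livers. Kng1 made up most of that sum.

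Kng1 (chr16:23057865-23082078) encodes kininogen, the source of bradykinin. Its level was 3665, 3259 and 3208 TPM in WT tumours, with 5123, 4945 and 4092 TPM in GKO tumours. WT non-tumours had 1202, 1029 and 1653 TPM and GKO non-tumours 1278, 1191 and 1536 TPM, and the 6 normal livers had 1015 to 1676 TPM. No tumour overlapped with any liver without one. Kng1 rose by 1.41 in WT (SE 0.27, adjusted p = 0.0363) and by 1.82 in GKO mice (SE 0.23, adjusted p = 0.00766), and the GKO call held under all 15 alternatives tried.

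Kng2 (chr16:22985854-23029482), a second kininogen gene 28382 bases from Kng1, had 318.4, 257.2 and 340.0 TPM in WT tumours against 143.3, 170.3 and 210.7 TPM in WT non-tumours. The GKO tumours had 457.4, 420.9 and 535.6 TPM against 176.4, 95.0 and 145.4 TPM. The change was 0.81 (SE 0.25, adjusted p = 0.143) in WT, and Kng2 rose by 1.79 in GKO mice (SE 0.29, adjusted p = 0.0129). Kng1 and Kng2 share 17.2% and 19.4% of their 50-base windows, so part of their reads may have been divided or dropped. F12 had 826.2 to 1292 TPM in the tumours and 568.1 to 822.0 TPM in the non-tumours, with log2 fold changes of 0.36 and 0.72 that did not pass.

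F11 and Klkb1 arose from a duplication and lie 4657 bases apart on the minus strand of chromosome 8 (chr8:45241174-45262031 and chr8:45266689-45294859), yet their changes had opposite signs. F11, which encodes factor XI, had 167.8, 164.3 and 56.5 TPM in WT tumours, 90.7, 52.0 and 33.2 TPM in GKO tumours, and 15.6 to 33.3 TPM in the 12 other livers. GKO tumour 3, at 33.18 TPM, was the one tumour not above them all, since GKO normal 1 had 33.26 TPM. Klkb1, which encodes prekallikrein, had 19.8, 20.2 and 53.7 TPM in WT tumours, with 62.9, 43.8 and 37.7 TPM in GKO tumours, and 89.0 to 216.8 TPM in the other 12. In WT mice F11 rose by 2.28 (SE 0.44, adjusted p = 0.0394), and Klkb1 changed by -1.75 (SE 0.40, adjusted p = 0.0671). In GKO mice F11 changed by 1.18 (SE 0.37, adjusted p = 0.0767), and Klkb1 fell by 1.31 (SE 0.27, adjusted p = 0.0267).

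The ratio of F11 to Klkb1 within a sample does not depend on the rest of the library. It was 8.48, 8.14 and 1.05 in WT tumours, 1.44, 1.19 and 0.881 in GKO tumours, and 0.143 to 0.286 in the 12 livers without a tumour. Even the lowest tumour was above the highest of the others, and WT tumours 1 and 2 were above the rest of the tumours. F11 was higher and Klkb1 lower in every tumour than in every non-tumour, so the ratio had to separate them and is no further evidence. A second annotated gene, Gm45753, covers 43.2% of the exonic bases of Klkb1 on the same strand and had at most 0.05 TPM, so the level of Klkb1 may be understated in all samples alike.

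The 150 bases before the RefSeq starts of the pair are given because the genes sit side by side and differ in the sign of their change. Capitals mark matches to TGTTTAC (a FOXA core), TTGCNNAA (a C/EBP core) or TATAAA on either strand (GRCm38.p6, minus strand, chr8:45262032-45262181 and chr8:45294836-45294985):
F11: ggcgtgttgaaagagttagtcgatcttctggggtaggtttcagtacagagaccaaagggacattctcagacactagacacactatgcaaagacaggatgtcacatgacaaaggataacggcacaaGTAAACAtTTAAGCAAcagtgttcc
Klkb1: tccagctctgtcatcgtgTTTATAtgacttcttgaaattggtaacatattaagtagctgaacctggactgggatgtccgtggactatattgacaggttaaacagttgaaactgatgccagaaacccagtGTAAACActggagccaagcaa
Both carry the FOXA core close to the start, at -25 to -19 in F11 and -21 to -15 in Klkb1. That core was in 3.5% of 27025 mouse promoters of 300 bases, and F11 and Klkb1 were the 2 of 29 matched genes with it.

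**Figure D3:**
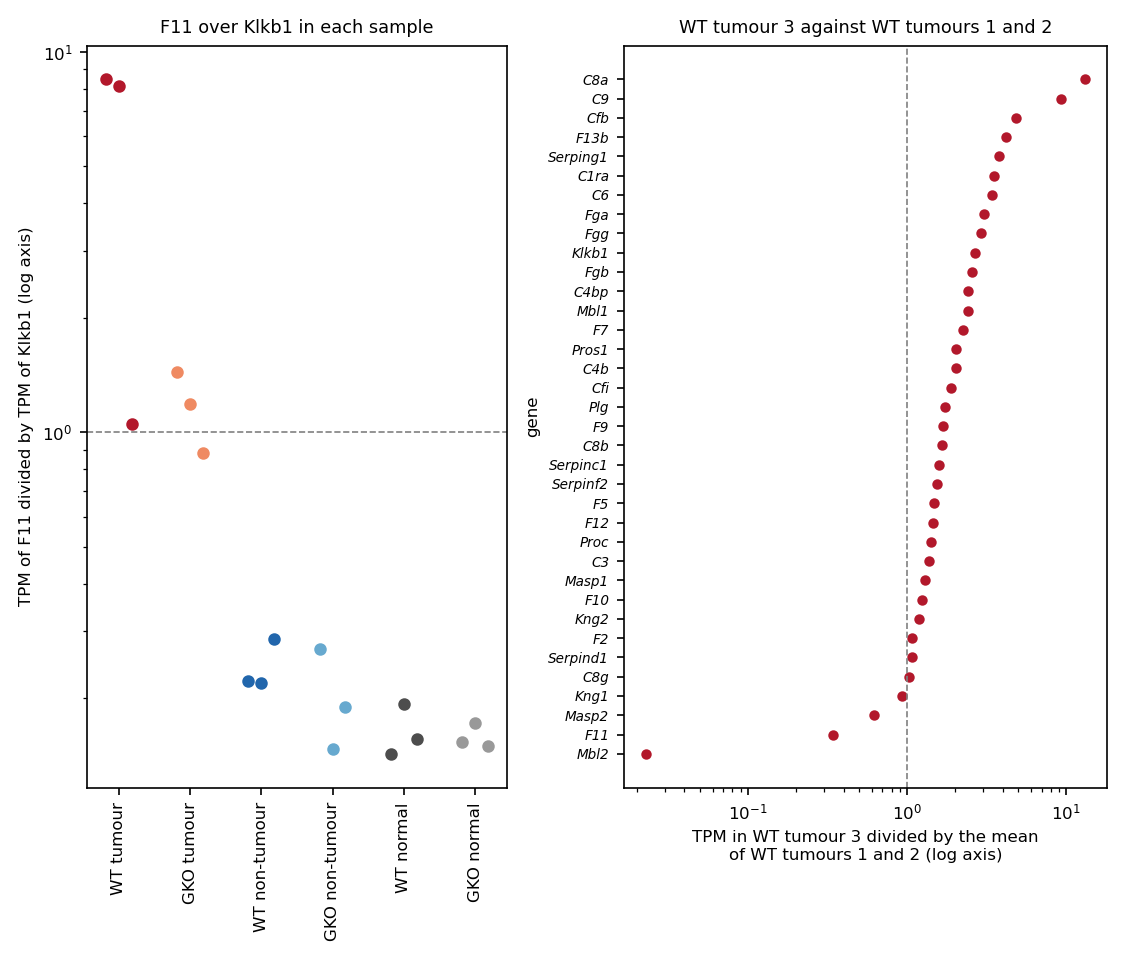
Left, TPM of F11 divided by TPM of Klkb1 in each sample (log axis, 3 points a group, dashed line at 1); the 6 tumours lie between 0.881 and 8.48 and the 12 other livers between 0.143 and 0.286. Right, TPM in WT tumour 3 divided by the mean of WT tumours 1 and 2 for each gene (log axis), from 0.0228 for Mbl2 to 13.1 for C8a; Cfd, at 0 in WT tumour 3, is not drawn.

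Of the 5 factors grouped here as the clotting cascade, F2 and F5 had the largest changes and F7, F9 and F10 the smallest. F2, prothrombin, had 1529, 1390 and 1578 TPM in WT tumours and 744.7, 856.5 and 1086 TPM in WT non-tumours (0.76, SE 0.24, adjusted p = 0.154). GKO tumours had 2474, 1303 and 1738 TPM against 894.1, 511.5 and 721.4 TPM, and F2 rose by 1.36 (SE 0.33, adjusted p = 0.0412). All 6 tumours were above all 12 other livers. F5, the cofactor of factor Xa, changed by 0.55 and 0.76 without passing. The log2 fold changes of F7, F9 and F10 lay between -0.29 and 0.22 in both genotypes. F7 and F10 lie 1498 bases apart on chromosome 8 and overlapped between tumours and non-tumours.

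The 3 fibrinogen chains are neighbours on chromosome 3, in the order Fgg, Fga and Fgb (chr3:83007724-83049863). Fga, the alpha chain, had 1305, 1374 and 4043 TPM in WT tumours, 1167, 1116 and 2661 TPM in WT non-tumours, 1937, 3173 and 2894 TPM in GKO tumours and 1117, 486.1 and 1065 TPM in GKO non-tumours. The WT groups overlapped and the GKO groups did not. Fga rose in GKO mice by 1.65 (SE 0.39, adjusted p = 0.0373) and Fgb, the beta chain, by 1.06 (SE 0.27, adjusted p = 0.0476). Fgg, the gamma chain, changed by 1.08 (SE 0.37, adjusted p = 0.0956). In WT mice the 3 changes were 0.35, 0.23 and 0.22 with SE of 0.47 to 0.56.

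Summed over the 3 chains, WT tumour 3 had 13540 TPM against 4530 and 5096 TPM in WT tumours 1 and 2. WT non-tumour 3 had 9740 TPM against 4632 and 4048 TPM in the other WT non-tumours. Each was thus well above the others of its group, and they were also the samples with the highest acute phase sums. The 14 acute phase genes summed to 41240 TPM in WT tumour 3, where the other tumours had 18500 to 25550 TPM, and to 65960 TPM in WT non-tumour 3, where the other livers had 13550 to 29540 TPM. Saa1, serum amyloid A, had 6688 TPM in WT non-tumour 3 and at most 1281 TPM in any other sample. In the GKO tumours, the acute phase sum overlapped that of the GKO non-tumours (14850 to 29540 TPM), while the fibrinogen sum was 7237, 10880 and 8781 TPM against 4849, 2489 and 4572 TPM. The part of an acute phase response in the fibrinogen levels was not tested.

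The 150 bases before the RefSeq start of each chain gene are shown because these neighbours had changes of the same sign. Capitals mark CTGGGAA (the core of an interleukin-6 response element), TTGCNNAA (C/EBP) and GTTAAT (an HNF1 half-site) on either strand, in GRCm38.p6 at chr3:83007574-83007723 (plus), chr3:83026003-83026152 (plus) and chr3:83049864-83050013 (minus):
Fgg: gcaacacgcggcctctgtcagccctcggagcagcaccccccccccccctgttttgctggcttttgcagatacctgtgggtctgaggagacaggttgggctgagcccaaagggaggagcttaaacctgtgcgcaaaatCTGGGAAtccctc
Fga: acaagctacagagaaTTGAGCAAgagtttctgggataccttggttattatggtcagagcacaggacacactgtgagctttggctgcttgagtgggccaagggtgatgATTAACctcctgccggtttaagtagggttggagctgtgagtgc
Fgb: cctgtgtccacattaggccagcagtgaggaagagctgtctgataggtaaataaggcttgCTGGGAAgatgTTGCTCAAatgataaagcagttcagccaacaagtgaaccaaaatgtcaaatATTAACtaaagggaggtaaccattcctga
Fga and Fgb each held a C/EBP core and an HNF1 half-site in this window, and Fgb and Fgg the interleukin-6 core. The fourth fibrin gene, F13b, encodes the carrier subunit of the factor that crosslinks fibrin, and had log2 fold changes of -0.71 and 0.67, both with SE of at least 0.40.

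**Figure D4:**
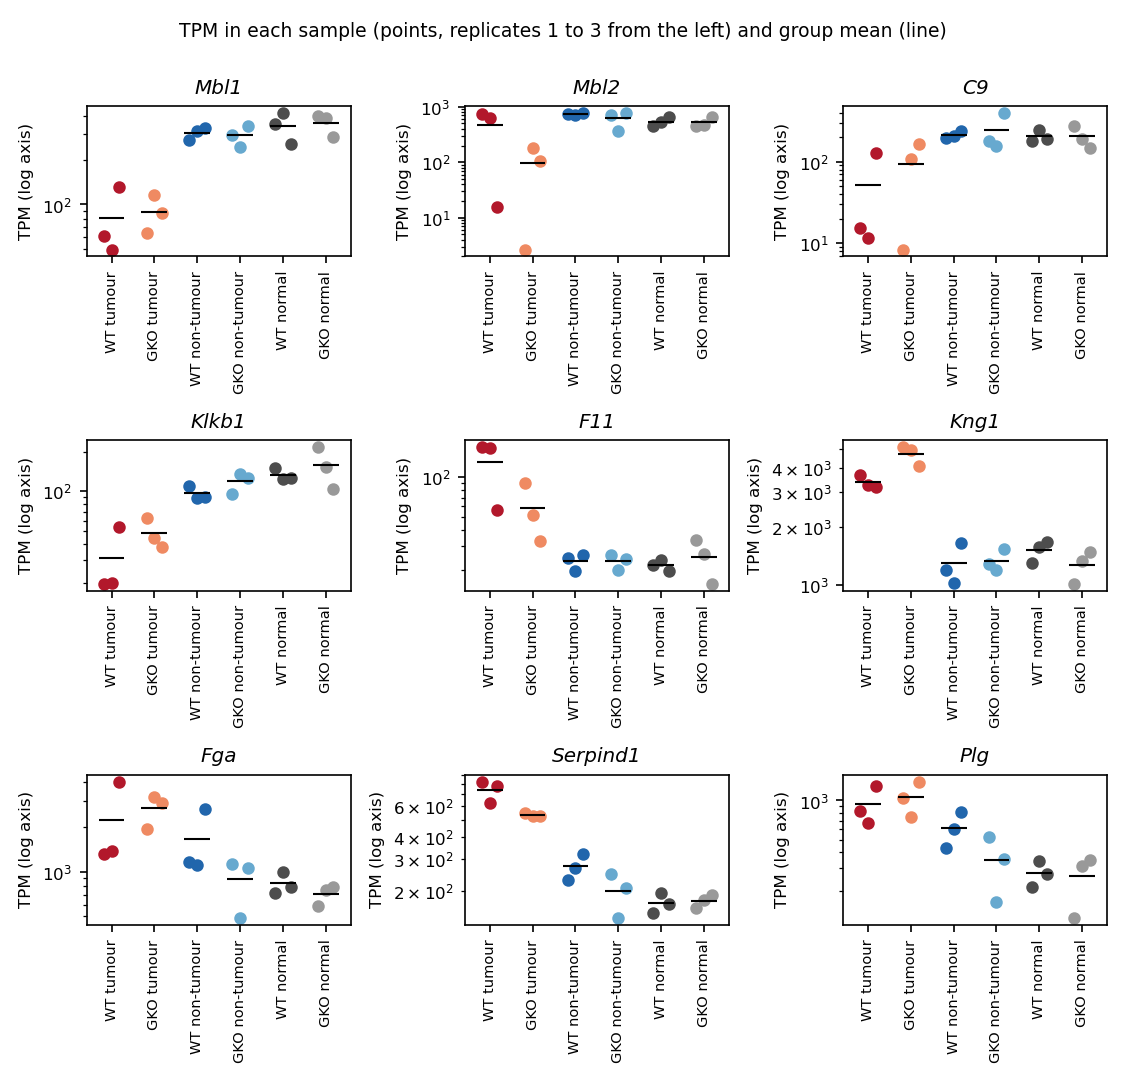
TPM of 9 genes in each of the 18 samples (log axes, which differ between panels), with replicates 1 to 3 from the left and a line at the group mean. Kng1 in tumours (3208 to 5123 TPM) and Mbl1 in tumours (49.3 to 132.5 TPM) do not overlap any of the other livers, while Mbl2, C9 and Fga spread widely among the WT tumours.

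Among 4 anticoagulants only Serpind1 passed the test, and it did so in both genotypes. Serpind1 (chr16:17331371-17343575) encodes heparin cofactor II, which inhibits thrombin. It had 823.9, 625.2 and 778.2 TPM in WT tumours, 546.0, 528.1 and 528.4 TPM in GKO tumours, 229.9, 269.2 and 322.5 TPM in WT non-tumours and 248.4, 139.9 and 205.6 TPM in GKO non-tumours. The 6 normal livers had 150.5 to 194.4 TPM. It rose by 1.44 in WT (SE 0.25, adjusted p = 0.0273) and by 1.47 in GKO mice (SE 0.27, adjusted p = 0.0190). Serpinc1, antithrombin, had changes of -0.23 and 0.00 (SE 0.27 and 0.35), and Proc and Pros1, protein C and its cofactor protein S, lay between -0.27 and -0.03. Zbtb37, which had at most 1.25 TPM, overlaps 34.4% of the exonic bases of Serpinc1 on the other strand. Reads on those shared bases may have been dropped or counted for either gene.

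Both genes of fibrinolysis were above 0 in both genotypes and rose in GKO mice. Plg, plasminogen, had 830.9, 674.3 and 1303 TPM in WT tumours and 432.6, 597.6 and 818.9 TPM in WT non-tumours (0.59, SE 0.36). GKO tumours had 1053, 752.6 and 1400 TPM against 525.0, 165.4 and 351.2 TPM, a rise of 1.72 (SE 0.45, adjusted p = 0.0498) that did not pass in 5 of the 6 fits that left out a GKO sample. Serpinf2, the plasmin inhibitor alpha-2-antiplasmin, had 1477, 1662 and 2416 TPM in WT tumours against 657.4, 714.5 and 896.0 TPM, and 2753, 1858 and 1389 TPM in GKO tumours against 718.2, 548.7 and 703.7 TPM. All tumours were above all other livers. Its change was 1.27 in WT (SE 0.28, adjusted p = 0.0606), and it rose by 1.56 in GKO mice (SE 0.31, adjusted p = 0.0232).

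The genotypes were then compared, to ask whether loss of miR-181ab1 goes with other levels of these genes in a tumour. Between GKO and WT tumours 0 of the 37 genes passed the test, against 0.0215% (3) of 13964 genes. By limma 1 gene, Kng2, had an unadjusted p under 0.05, against 8.87% of all genes. Kng2 was at 457.4, 420.9 and 535.6 TPM in GKO tumours and 318.4, 257.2 and 340.0 TPM in WT tumours, a log2 fold change of 0.63 (SE 0.22, adjusted p = 0.511). Kng1 was also higher in all GKO tumours (0.48, SE 0.23) and Serpind1 lower in all of them (-0.46, SE 0.21). The share of all genes whose groups did not overlap was not counted for this comparison, so these separations cannot be set against it. Over all 37 genes 29 were above 0 and 8 below, with a median of 0.23, where 60.0% of all genes were above 0 with a median of 0.09. Median scaling gave 25 above and 12 below. Without WT tumour 3, C8a was higher in GKO tumours by 2.43 (SE 0.20, adjusted p = 0.0123). In that fit 147 of 14031 genes passed, against 3 with all samples. It kept only WT tumours 1 and 2, which were much alike (C8a at 22.8 and 28.4 TPM), so its p-values may be too small. WT tumour 3, at 335.6 TPM, was above the GKO tumours at 132.0 to 154.1 TPM. With WT tumours 1 and 2 averaged as 1 sample beside WT tumour 3, 0 of the 37 genes passed.

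The change from non-tumour to tumour was set against that of the other genotype in a single fit. By limma 0 genes passed for this difference, against 0.0142% of 14106 genes, and 1 gene, Kng2, had an unadjusted p under 0.05, against 10.5% of all genes. The difference for Kng2 was 0.98 (SE 0.37, adjusted p = 0.466). It was 1.29 (SE 0.72) for Fga, 1.13 (SE 0.61) for Plg and -1.09 (SE 0.61) for F11. The 9 genes that passed in GKO and not in WT mice were therefore not shown to differ in their change between the genotypes.

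The genotypes were also compared away from tumours. Between GKO and WT normal livers 0 genes passed (0.0% of 13099 genes), and by limma 0 had an unadjusted p under 0.05, where 3.96% of all genes did. Their log2 fold changes lay between -0.26 and 0.24. Between GKO and WT non-tumours 0 genes passed (0.0% of 13768 genes), and C4bp alone had an unadjusted p under 0.05, where 5.8% of all genes did. C4bp was at 92.3, 54.9 and 89.7 TPM in GKO non-tumours and 89.6, 168.5 and 171.4 TPM in WT non-tumours, a log2 fold change of -0.83 (SE 0.35, adjusted p = 0.643). Log2 fold changes in non-tumours were wider than in normal livers, from -0.93 (SE 0.46) for Plg to 0.73 (SE 0.90) for C4b, and Fga was at -0.86 (SE 0.47).

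Non-tumour livers were compared with normal livers for changes outside the tumours after DEN. In WT mice 0 genes passed, against 0.00744% (1) of 13440 genes, and by limma 8 had an unadjusted p under 0.05, against 24.4% of all genes. Those were Cfb, Plg, Serpind1, F13b, C4bp, Masp2 and Fga above 0 and Klkb1 below. Plg had 432.6, 597.6 and 818.9 TPM in WT non-tumours and 214.0, 342.3 and 271.8 TPM in WT normal livers (1.13, SE 0.30, adjusted p = 0.125). Serpind1 had 229.9, 269.2 and 322.5 TPM against 150.5, 194.4 and 167.4 TPM (0.67, SE 0.21, adjusted p = 0.150). These groups did not overlap, but the share of all genes without overlap was not counted here, and 79.7% of all genes were above 0. The median of the 37 genes, 0.35, was about that of all genes, 0.32, and under median scaling it was -0.03. In GKO mice 0 genes passed (0.0% of 13530 genes), and by limma only Cfb had an unadjusted p under 0.05 (0.50, SE 0.22), where 5.2% of all genes did.

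The deleted cluster makes the mature miRNAs miR-181a and miR-181b, and their sequences from RefSeq are shown because they set which transcripts could pair with them. They lie at chr1:137966468-137966490 and chr1:137966650-137966673 (GRCm38.p6, plus strand), and share the seed, bases 2 to 8, in capitals:
mmu-miR-181a-5p: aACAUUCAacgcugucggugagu
mmu-miR-181b-5p: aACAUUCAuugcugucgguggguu
In the annotated 3′ untranslated regions of the 37 genes, TGAATGT, the complement of this seed, was found 6 times in 5 genes, and the extended match that ends in A was found 0 times. Those sites are given with their flanks, the match in capitals and positions counted from the first base of the untranslated region:
C4bp: tgtgtacatttTGAATGTgtgaattaaaa
F12: ggatgggacgaTGAATGTggcatgctggg
F7: cgtaggacacgTGAATGTgccgcatgcat
Fgb: ttggttccatcTGAATGTggagcatttca
Pros1, position 630: ggagcagcacaTGAATGTtgtctcaatca
Pros1, position 843: tataggtggctTGAATGTgattgttaaag

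A match is a description and does not show that a site is used. The log2 fold changes of these 5 genes between GKO and WT tumours were 0.02 for C4bp, 0.22 for F12, 0.10 for F7, 0.37 for Fgb and -0.16 for Pros1, with SE of 0.26 to 0.51. Between normal livers they were -0.10, 0.04, 0.06, -0.11 and -0.10, with SE of 0.18 to 0.27. None passed the test in tumours, non-tumours or normal livers.

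Promoters of 300 bases, from 250 before to 50 after the start, were matched for 29 of the 37 genes. The C/EBP core TTGCNNAA was present in 10 of them (34.5%, against 10.8% of 27025 promoters) and the HNF1 half-site GTTAAT in 8 (27.6%, against 7.2%). The interleukin-6 core CTGGGAA was in 7 (24.1%, against 11.1%) and the STAT3 motif TTCNNNGAA in 7 (24.1%, against 8.5%). These 2 motifs can overlap, as they did in F9 and Masp2. The NF-kB motif was in 5 (17.2%, against 20.5%), TATAAA in 2 (6.9%, against 14.2%) and the HNF4 core CAAAGTC in 0, against 4.4%. Mbl1 and Mbl2 held none of the 8 motifs, and C9 held the C/EBP core.

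Other genes of the same systems, listed as hepatocyte genes without a check of their source, were counted from a list of 17, of which 15 were tested. In WT mice 1 was higher in tumours, Hgfac, the protease that activates hepatocyte growth factor, by 1.86 (SE 0.38, adjusted p = 0.0461), and 0 were lower, with 1 higher and 4 lower at an unadjusted p under 0.05 by limma, where 19.9% of all genes had such a p. In GKO mice Hgfac rose by 1.96 (SE 0.32, adjusted p = 0.0136), and Fcna and Colec10, a ficolin and a collectin that start the lectin pathway, fell by 3.46 and 1.66 (adjusted p = 0.0272 and 0.0378). Over all genes, 2.16% were called higher and 2.07% lower in WT mice, and 7.75% and 3.97% in GKO mice. Whether Fcna and Colec10 fell in hepatocytes or in other cells was not tested. Of 6 genes for vitamin K-dependent carboxylation and secretion of clotting factors, 0 passed by limma in WT mice, with 3 at an unadjusted p under 0.05 (19.9% of all genes), and 2 rose in GKO mice (7.75% of all genes). Those were Ggcx, the carboxylase, which rose by 1.20 (SE 0.28, adjusted p = 0.0363), and Mcfd2, part of the cargo receptor for factors V and VIII, which rose by 1.62 (SE 0.30, adjusted p = 0.0191). Acute phase genes moved both ways, with 0 higher and 1 lower of 14 in WT and 2 higher and 2 lower in GKO mice. The shares over all genes were 2.16% and 2.07% in WT and 7.75% and 3.97% in GKO mice. Lcn2 and Apcs rose by 3.80 and 2.39 in GKO tumours while Orm1 and Orm3 fell by 2.35 and 2.64. The 8 genes of interleukin-6 signalling had 0 calls by limma in either genotype, with 2 at an unadjusted p under 0.05 in each, against 19.9% of all genes in WT and 31.7% in GKO mice.

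WT tumour 3 differed from the other WT tumours in many of these genes. It had 16 of the 37 genes more than 2-fold above the mean of WT tumours 1 and 2, and 3 more than 2-fold below, where the shares over 13752 genes were 10.3% and 19.0%. The ratio was largest for C8a at 13.1 and C9 at 9.27, and the 3 low genes were Mbl2 at 0.0228, F11 at 0.340 and Cfd, which had 0 reads there. Between WT tumours 1 and 2 the median difference was only 1.17-fold. Over the 37 genes the highest sample of a group was a median of 2.04 times the lowest in WT tumours and 1.74 in GKO tumours. It was 1.61 in WT and 1.75 in GKO non-tumours, and 1.33 in WT and 1.38 in GKO normal livers, so the GKO non-tumours spread as much as the GKO tumours.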

How the data were processed

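RNA-seq libraries of 18 samples were analysed in 6 groups set by the genotype and tissue in the labels. Per the labels and methods, the authors aligned reads with STAR 2.7.3a to mm10, counted them with featureCounts 2.0.0 and deposited TPM. The annotation and the TPM formula were not given in the sources used here. Values were joined to GENCODE mouse release 21 by identifier (54809 of 54838 genes). TPM multiplied by exonic length gave whole reads, within 0.02, for at least 97.95% of the values up to 30 reads. Counting error weighs most on genes with few reads, and the floor of detection was taken as 3 reads.

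The main test was limma 3.58.1 (R 4.3.3), by lmFit and eBayes with a trend, of log2(TPM + 1). Genes whose average over the compared samples was under 0.5 TPM were left out. All 37 genes passed this filter in each comparison. P-values were adjusted over all genes by the Benjamini-Hochberg method and called under 0.05. Fold changes on this scale understate those of low genes. Comparisons that share a group share its samples. Other work used Python 3.11.15 with pandas 2.3.3, numpy 2.4.6 and matplotlib 3.10.9. Procedures were tested on simulated data.

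The members and gene lists were chosen with earlier results of these data known. Genes passing the test were named in each comparison, and, where fewer than 3 did, those with an unadjusted p under 0.05 and groups that do not overlap; members at the ends of a role group were named with their values. C8a without WT tumour 3, C4bp in non-tumours, Masp2 and the other genes named outside this rule were chosen after their values were seen. Of the other lists, those called with the largest changes were named. One result of those lists is not reported here. Alternatives were a pseudocount of 0.1, no filter, a mean of at least 5 TPM, median scaling, quantile normalization, all 18 samples in one fit, no trend, voom on recovered reads, a replicate block, averaging WT tumours 1 and 2, and leaving out each sample.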

Additional observations from a re-analysis of the deposited data

How the results depend on the processing

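In WT tumours against non-tumours, 4 of the 37 genes passed. The count was 0 with no filter on low values, 8 with all 18 samples in one fit, 0 with WT tumours 1 and 2 averaged as 1 sample, and 0 to 8 when 1 sample was left out. In GKO tumours against non-tumours 12 passed, 4 with no filter and 1 to 11 when 1 sample was left out. More genes are tested with no filter, and fewer samples enter when 1 is left out. For the other changes of count the cause was not tested. Between GKO and WT tumours the count was 0, and 0 to 1 when 1 sample was left out, the 1 being C8a without WT tumour 3. In the 5 other comparisons it was 0 under all alternatives run. For the 45 single gene results with an unadjusted p under 0.05 by limma, 691 alternative values were computed. Of these, 576 stayed on the same side of the threshold, 84 lost the call, 31 gained it and 0 changed direction. Only the 4 WT and 12 GKO calls could lose a call, so all 84 losses fell among them. For the rest of the 45, staying on the same side meant staying uncalled.

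With the replicate number as a block, 2 genes passed in WT (Mbl1 kept, C6 gained, F11, Kng1 and Serpind1 lost at adjusted p = 0.0634, 0.0638 and 0.0604) and 11 in GKO tumours against non-tumours. In no comparison did all 3 same-number pairs correlate above 0.1 in their deviations from the group means (0.0063, -0.0091 and 0.245 in WT and 0.119, 0.0689 and 0.0414 in GKO mice), so the numbers were not taken to pair the samples, which the labels leave unknown. In the GKO comparison each sample correlated best with its own number, a hint from the data and not from the design. Depth limits Cfb, Cfd and the lowest values of C6 and Mbl2, which rest on 0 to 214 reads.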

Other observations

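Complement and coagulation genes of other cell types were counted separately. Of 15 such genes (for example C1qa to C1qc of macrophages and F8, Vwf and Thbd of endothelium), 12 could be tested in WT and 13 in GKO tumours against non-tumours. In WT mice 0 passed the test by limma, and 1 had an unadjusted p under 0.05, where 19.9% of all genes did. In GKO mice 2 of the 13 were called higher and 0 lower, against 7.75% and 3.97% of all genes. At an unadjusted p under 0.05 by limma 5 were higher and 1 lower, where 31.7% of all genes had such a p. Plat, the tissue plasminogen activator, was one of the 2 and rose by 1.50 (SE 0.27, adjusted p = 0.0189). Plat had 1.56, 3.43 and 1.31 TPM in GKO tumours and at most 0.08 TPM in GKO non-tumours, though WT non-tumour 2 had 5.98 TPM.

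Of 15 receptors and membrane regulators, 12 were tested in WT and 13 in GKO mice. By limma 0 passed in WT tumours against non-tumours, with 1 at an unadjusted p under 0.05, where 19.9% of all genes had such a p. The thrombin receptor F2r and the related F2rl1 rose in GKO mice by 1.77 (SE 0.39, adjusted p = 0.0314) and 1.34 (SE 0.25, adjusted p = 0.0189). F2r had 15.5, 20.8 and 41.3 TPM in GKO tumours against 8.92, 4.63 and 5.95 TPM in GKO non-tumours. Markers of several cell types moved in the same comparison, where 7.75% of all genes were called higher and 3.97% lower. Of 10 hepatocyte markers 3 were called higher and 0 lower. Of 10 fibroblast markers 5 were called higher and 1 lower, with summed levels of 99.8 to 192.7 TPM in GKO tumours and 52.1 to 79.2 TPM in GKO non-tumours. Of 10 endothelial markers 3 were called higher and 0 lower. Of 10 macrophage markers 1 was called higher and 2 lower, and of 6 B cell markers tested 2 were called lower. The 8 cholangiocyte markers summed to 48.7, 969.4 and 565.0 TPM in GKO tumours against 37.4 to 62.5 TPM in GKO non-tumours, and of the 5 tested 0 were called by limma, with 3 higher at an unadjusted p under 0.05. No fibroblast marker was at 0 throughout, and the part of these cells in the rise of F2r, F2rl1 and Plat was not tested.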
